A study of Mus musculus with 39 samples.

Results

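5-hydroxymethylcytosine (5hmC) was described in wild-type (WT) mouse embryonic stem cells (mESC) treated with retinoic acid (RA). For each 200 bp tile of the genome it was taken as the deposited level of 5mC plus 5hmC, read by reduced representation bisulfite sequencing (RRBS), minus the deposited level of 5mC, read after oxidation (oxRRBS). Every tile with both values was used, which gave 252014 of the 377684 tiles in the table. The study compared WT with p53-null cells in naive and RA-treated culture, and WT with p53-null liver, in 39 libraries of 10 groups.

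The groups used here were RA-treated p53-null mESC (4 RRBS and 4 oxRRBS libraries), RA-treated WT mESC (5 RRBS and 4 oxRRBS libraries), naive p53-null mESC (3 and 3) and naive WT mESC (5 and 5). All came from E2.5 morulae of crosses between p53+/- mice (129s-Trp53tm2Tyj/J) and were derived on irradiated feeder cells in 2i medium. For differentiation the feeders were depleted, and the cells received 1 μM RA for 4 days. How many lines or embryos stand behind each group, their sex, and whether the RRBS and oxRRBS libraries came from the same cultures are not given in the labels. No expression was measured, so the state of the cells was not checked against marker genes. The headings of the tile table name no cell state, and its second set of columns was taken as RA-treated. A second table of single CpGs, whose headings do name the state, bears on this choice. Over 95601 tiles present in both tables, each of the 8 tile columns used lay nearest to the CpG column of the same state, genotype and assay. For RA-treated WT total methylation the mean absolute difference was 4.76 points to its own CpG column and 6.20 points to the next nearest.

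5hmC is made from 5mC by the TET dioxygenases, and further oxidation or replication without maintenance leads to loss of the mark. Ordinary bisulfite treatment protects 5mC and 5hmC alike. Oxidation first turns 5hmC into 5-formylcytosine, which bisulfite then converts, so that only 5mC is still read as methylated. Naive mESC in 2i medium are known for low DNA methylation and high TET activity, and RA drives them out of pluripotency while methylation is laid down. RRBS cuts at the MspI site and so favours CpG-rich DNA.

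RA-treated WT cells had a total methylation of 42.5% and a 5mC level of 40.5%, which left a mean 5hmC of 1.96 percentage points over the 252014 tiles, or 4.61% of total methylation. Each group has 1 pooled value per tile, with no value per library, no coverage and therefore no known depth. A replicate SD, a confidence interval or a test between groups could not be computed, and differences were not tested. Spread is given instead as the SD over 20 chromosomes (19 autosomes and X), which are parts of the same pool and not replicates. No rate of oxidation or of bisulfite conversion entered the computation. A shift of either assay in a whole group would move all chromosomes alike, so their agreement in direction cannot show it. The mean 5hmC was positive on all 20 chromosomes, with an SD of 0.296 points, and ran between 0.849 points on X and 2.22 points on chromosome 11.

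Single tiles carried little of this signal. The SD over tiles was 12.1 points around a median of 0.516 points. The difference was above 0 in 55.6% of tiles and below 0, a value that no true 5hmC level can take, in 40.7%. The tile at the percentile 5 stood at -17.3 points and the tile at the percentile 95 at 22.9 points. A difference of 25 points or more was found in 10027 tiles (3.98%), and one of -25 points or less in 4819 tiles (1.91%). In RA-treated p53-null cells 61.2% of the same tiles were above 0.

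The level was first set against total methylation. A tile's own total holds the same reading error as its 5hmC, so tiles were put into classes by the total of RA-treated p53-null cells, which are other libraries. 5hmC of RA-treated WT cells was 0.194 points in the 49145 tiles under 5% methylation and 1.82 points in the 20854 tiles at 5 to 20%. Above that the mean over all tiles changed little between classes. It was 2.42 points at 20 to 40%, 2.40 points at 40 to 60%, 2.47 points at 60 to 80% and 3.10 points in the 6434 tiles at 80% or more. As a share of total methylation it therefore ran the other way, at 15.1% under 5% methylation, 11.5% at 5 to 20%, 6.39% at 20 to 40% and 4.29% at 40 to 60%. The share was 3.58% at 60 to 80% and 3.93% at 80% or more.

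This profile depended on what formed the classes. With classes from the tile's own total, 5hmC was -0.552 points at 20 to 40% and 11.9 points at 80% or more. With classes from the mean of own total and 5mC, it was 4.43 points at 20 to 40% and -2.48 points at 80% or more. With classes from naive p53-null cells, over the tiles measured in both states, it stood highest in the middle. It was then 0.528 points under 5% naive methylation, 2.95 points at 5 to 20%, 2.97 points at 20 to 40%, 2.47 points at 40 to 60%, 1.85 points at 60 to 80% and 1.23 points at 80% or more.

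Against naive cells, 5hmC was lower after RA while methylation was higher. In the 214665 tiles with values in both states, 5hmC averaged 1.95 points in RA-treated WT cells and 5.77 points in naive WT cells. That was 4.57% of total methylation in RA-treated WT cells and 19.6% in naive WT cells. The difference of -3.82 points had an SD of 0.258 points over chromosomes and was negative on 20 of 20. Total methylation was 42.6% in RA-treated WT cells and 29.4% in naive WT cells, and 5mC was 40.7% in RA-treated WT cells and 23.7% in naive WT cells. Total and 5mC were higher after RA on 20 of 20 chromosomes, total by 13.2 points. In p53-null cells RA-treated minus naive 5hmC was -2.14 points, again negative on 20 of 20 chromosomes.

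In points, the 2 states were close in weakly methylated tiles and far apart in methylated ones. Tiles under 5% held 0.187 points of 5hmC in RA-treated WT and 0.120 points in naive WT cells, and RA-treated cells were lower on 2 of 20 chromosomes. At 5 to 20% the values were 1.78 points in RA-treated WT and 1.89 points in naive WT cells, lower after RA on 13 of 20 chromosomes. At 20 to 40% they were 2.41 points in RA-treated WT and 5.23 points in naive WT cells. The gap was wider again at 40 to 60%, with 2.37 points in RA-treated WT and 7.79 points in naive WT cells. Tiles at 60 to 80% had 2.45 points in RA-treated WT and 9.12 points in naive WT cells, and tiles at 80% or more had 3.06 and 9.59 points in these groups. RA-treated cells were lower on 20 of 20 chromosomes in each of the 4 classes from 20% up, where they held between 26.9% and 46.0% of the naive 5hmC. As a share of total methylation, 5hmC was lower after RA at 5 to 20% too. The share was 11.5% of a total of 15.5% in RA-treated WT and 30.3% of a total of 6.24% in naive WT cells. Under 5% it was 14.8% of a total of 1.26% in RA-treated WT and 18.4% of a total of 0.649% in naive WT cells. These are shares of small values. Over all tiles measured after RA, the RA-treated WT share under 5% was 20.5% with 1 CpG in the table of single CpGs and -0.970% with none. The order of the states under 5% is thus not firm.

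**Figure D1:**
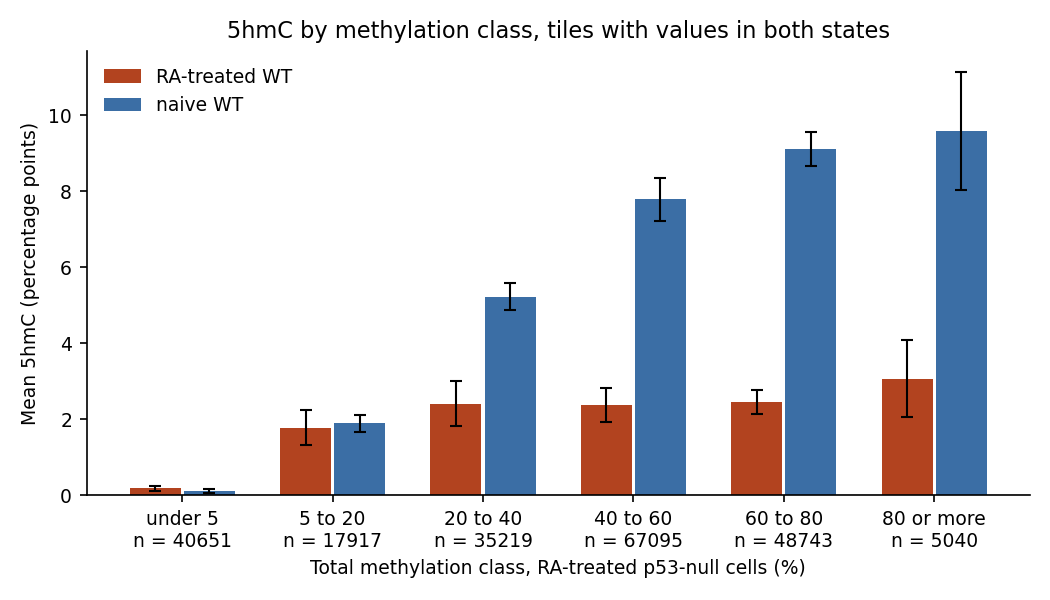
Mean 5hmC in percentage points (vertical axis) of RA-treated WT (left bar) and naive WT cells (right bar) by the total methylation class of RA-treated p53-null cells (horizontal axis, with the number of tiles). Error lines are the SD over 20 chromosomes of 1 pool. RA-treated cells stay between 1.78 and 3.06 points in the 5 classes from 5% up, while naive cells reach 9.59 points.

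The size of this contrast depended on which tiles were read. The CpG table lists no CpG in which its column with the suffix Hx exceeds its total, in any of the 4 groups, although 40.7% of tiles have a negative difference. Being listed there is therefore not independent of 5hmC. What the suffix stands for is not defined in the labels. Tiles with listed CpGs had 4.05 points in RA-treated WT and 6.30 points in naive WT cells, and tiles without any had 0.264 points in RA-treated WT and 5.34 points in naive WT cells. In the CpG table itself total minus Hx averaged 4.43 points in RA-treated WT and 4.75 points in naive WT cells over 330387 CpGs.

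Among tiles of 40 to 80% methylation after RA, 5hmC was higher where naive methylation had been lower, and in tiles under 20% the order ran the other way. Both classes were taken from p53-null cells and the 5hmC from WT cells. At 40 to 60% after RA, 5hmC of RA-treated WT cells was 7.84 points in the 155 tiles under 5% in the naive state and 5.38 points in the 2659 tiles at 5 to 20%. It was 3.41 points for 20 to 40% naive methylation, 2.28 points for 40 to 60%, 1.37 points for 60 to 80% and 0.569 points in the 2410 tiles at 80% or more. RA-treated WT total methylation ran against this order, at 42.4% in the first of these classes and 62.4% in the last. The contrast between tiles under 20% and tiles of 60% or more in the naive state was 4.24 points (SD over chromosomes 1.42) and was positive on 20 of 20 chromosomes. It rested on 2814 tiles with 5.52 points and 20174 tiles with 1.27 points. With both classes taken from WT cells and the 5hmC from RA-treated p53-null cells, the same contrast was 1.47 points. Within tiles that hold listed CpGs it was 1.77 points and within tiles without any 2.88 points, both below the 4.24 points over all tiles. The share of listed tiles differed between the classes. Of the 2659 tiles at 5 to 20% naive methylation 1248 were listed, and of the 2410 tiles at 80% or more 306 were. The contrast over all tiles thus also holds this difference in mix, and being listed is not independent of 5hmC. In tiles with listed CpGs 5hmC at 40 to 60% after RA did not fall throughout. It was 8.72 points for 5 to 20% naive methylation, 6.62 points for 40 to 60%, 7.04 points for 60 to 80% and 7.90 points for 80% or more. In tiles without listed CpGs it fell from 5.29 points for under 5% naive methylation to -0.498 points for 80% or more.

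The order was the same at 60 to 80% and at 80% or more after RA, nearly the same at 20 to 40%, and different under 20%. At 80% or more after RA, 5hmC was 6.72 points in the 61 tiles at 20 to 40% naive methylation and 4.58 points for 40 to 60%. It was 3.66 points for 60 to 80% and 1.84 points for 80% or more. At 60 to 80% after RA, 5hmC was 6.91 points for 5 to 20% naive methylation, 4.35 points for 20 to 40%, 3.21 points for 40 to 60%, 2.12 points for 60 to 80% and 1.28 points for 80% or more. At 20 to 40% after RA it was 3.50 points for under 5% naive methylation, 3.29 points for 5 to 20%, 2.30 points for 20 to 40% and 1.54 points for 40 to 60%, then 0.686 points for 60 to 80% and 0.857 points for 80% or more. At 5 to 20% after RA the order was reversed, with 1.63 points for under 5% naive methylation, 1.85 points for 5 to 20%, 1.97 points for 20 to 40% and 2.76 points in the 271 tiles at 40 to 60%. Tiles under 5% after RA had 0.165 points where naive methylation was under 5% and 0.974 points where it was 5 to 20%. In these weakly methylated classes RA-treated WT total methylation ran in the same direction as 5hmC, at 11.6% in the first and 32.7% in the last of the classes at 5 to 20%. Grouped by the change in p53-null total methylation, tiles that gained 25 points or more had 4.92 points of 5hmC in RA-treated WT cells (9522 tiles, 9.01% of total), and tiles that gained 10 to 25 points had 3.29 points. Tiles that gained less than 10 points had 1.58 points, and tiles that lost more than 25 points had 1.02 points. In points, naive WT cells showed no such order, with 7.39 points in the tiles that gained 25 points or more, 4.54 points in those that gained less than 10 and 6.17 points in those that lost more than 25. As a share of total methylation, 5hmC fell along these classes in both states. From the largest gain to the largest loss the share went from 9.01% to 1.88% in RA-treated WT and from 31.2% to 12.3% in naive WT cells. With the change taken from WT cells, RA-treated p53-null cells had 4.27 points of 5hmC in tiles that gained 25 points or more and 3.38 points in those that gained 10 to 25. They had 1.73 points in tiles that gained less than 10, 1.44 points in those that lost less than 10, 2.72 points in those that lost 10 to 25 and 3.28 points in the 570 tiles that lost more than 25. In points, 5hmC of RA-treated p53-null cells was thus lowest in the tiles of least change, unlike that of RA-treated WT cells. Total methylation of RA-treated p53-null cells was lowest there too. It was 25.8% in tiles that gained less than 10 points and 26.8% in those that lost less than 10, against 47.7 to 53.5% in the other classes. As a share of total, 5hmC was 6.70% and 5.36% in these 2 classes and lowest, at 5.08%, in tiles that lost 10 to 25 points.

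Of 27 pairs of naive and RA classes with at least 50 tiles, 7 had more 5hmC in RA-treated WT than in naive WT cells, all under 20% in the naive state. Tiles under 5% in naive and at 20 to 40% in RA-treated p53-null cells had 3.50 points of 5hmC in RA-treated WT and 1.67 points in naive WT cells, higher on 18 of 20 chromosomes (1557 tiles). Tiles under 5% in the naive state and at 40 to 60% after RA had 7.84 points in RA-treated WT and 1.63 points in naive WT cells, higher on 17 of 20 chromosomes. Tiles at 5 to 20% naive methylation and 40 to 60% after RA were near equal, with 5.38 points in RA-treated WT and 5.05 points in naive WT cells, higher after RA on 9 of 20 chromosomes. In all 7 pairs total methylation was higher in RA-treated WT cells, and 5hmC as a share of it was lower. Tiles under 5% naive and at 20 to 40% after RA had a share of 13.4% of a total of 26.2% in RA-treated WT cells. In naive WT cells the share was 33.1% of a total of 5.05%. Tiles at 40 to 60% in both states, the largest class of methylated tiles, had 2.28 points in RA-treated WT and 8.32 points in naive WT cells (28930 tiles, lower on 20 of 20 chromosomes).

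**Figure D2:**
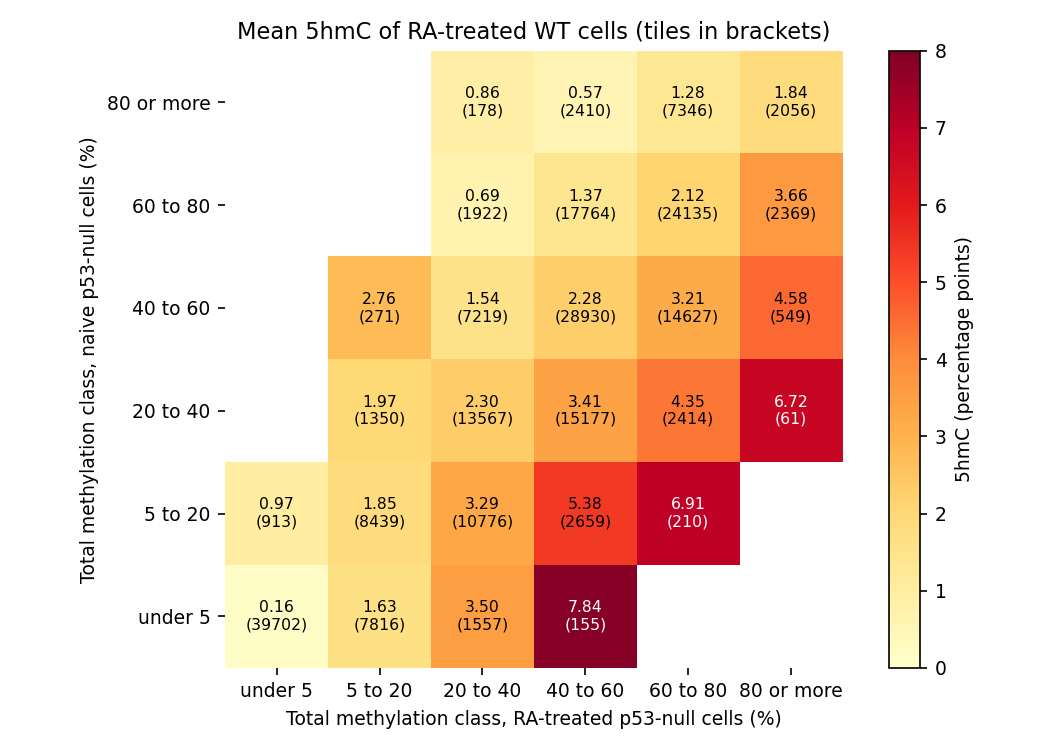
Mean 5hmC of RA-treated WT cells in percentage points (colour and printed value) by total methylation class after RA (horizontal axis) and in naive cells (vertical axis), both from p53-null cells, with the number of tiles in brackets and classes under 50 tiles left empty. Within the column at 40 to 60% the value is 7.84 points at the bottom and 0.569 points at the top.

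p53-null cells had more 5hmC than WT cells after RA. The mean was 2.84 points in RA-treated p53-null and 1.96 points in RA-treated WT cells, a difference of 0.884 points that was positive on 20 of 20 chromosomes. In classes of mean naive methylation the genotypes were close in low tiles and apart in high ones. Tiles under 5% had 0.571 points in RA-treated p53-null and 0.547 points in RA-treated WT cells, and tiles at 60 to 80% had 3.05 points in RA-treated p53-null and 1.52 points in RA-treated WT cells. In tiles with listed CpGs the difference was 0.0458 points, and in the CpG table total minus Hx differed by -0.452 points, p53-null minus WT, with 3.98 points in RA-treated p53-null and 4.43 points in RA-treated WT cells.

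CpG-dense parts held little 5hmC, as they held little methylation. Density was measured as the number of other tiles with values within 1000 bp, which does not use the CpG table. 5hmC was 2.49 points in tiles with no such neighbour, 2.27 points with 1, 1.78 points with 2 and 1.33 points with 3 to 4. It was 0.654 points with 5 to 7 and 0.397 points with 8 or more. Total methylation followed the same course, at 53.8% with no neighbour and 6.73% with 8 or more, and 5hmC as a share of total stayed between 4.44% and 6.26%.

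Within methylation classes the course with density varied. In the class at 40 to 60%, 5hmC was 2.50 points with no neighbour, 2.37 points with 1, 2.24 points with 2, 2.43 points with 3 to 4 and 2.89 points with 5 to 7. The 62 tiles of this class with 8 or more had 1.34 points. At 20 to 40% it was 2.45 points with no neighbour, 2.72 points with 3 to 4 and 0.895 points in the 70 tiles with 8 or more. At 60 to 80% it was 2.77 points with no neighbour and 2.09 points with 5 to 7. Tiles under 5% had 0.273 points with no neighbour and 0.0935 points with 8 or more.

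Counted by the CpGs that the CpG table lists in a tile, the fall over all methylation classes was steeper, with 5.67 points in tiles with 1 listed CpG, 4.85 points with 2, 2.65 points with 3 to 4, 0.614 points with 5 to 8 and 0.134 points with 9 or more. From 5 to 80% methylation the direction within classes was the opposite. At 40 to 60% 5hmC was 6.83 points with 1 listed CpG, 8.34 points with 2, 9.31 points with 3 to 4 and 10.7 points with 5 to 8, and at 20 to 40% it was 5.64, 6.82, 7.46 and 10.2 points for the same counts. Under 5% methylation it was 0.386 points with 1 and 0.115 points with 9 or more. Tiles with none listed had 0.377 points, and as being listed depends on 5hmC this count is not a clean measure of density.

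5hmC was also low at and near the 7565 tiles with 9 or more listed CpGs, taken as CpG-dense tiles. They are chosen by the same list of CpGs, so their own 5hmC is not independent of the choice. Of the 7054 with values in RA-treated cells, 7028 were under 5% methylation in RA-treated p53-null cells. 5hmC of RA-treated WT cells was 0.134 points in these tiles and 0.0851 points in tiles starting 200 bp away. It was 0.328 points at 400 to 600 bp, 0.738 points at 800 to 1000 bp and 1.73 points at 1200 to 2000 bp. Farther out it was 2.09 points at 2200 to 5000 bp, 2.64 points at 5200 to 20000 bp, 2.52 points at 20200 to 100000 bp and 1.84 points beyond 100000 bp. Total methylation was highest beyond 100000 bp (48.6%), where 5hmC was 3.78% of it, against 7.89% of a total of 21.9% at 1200 to 2000 bp.

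In tiles measured in both states the profiles in points stayed together near the dense tiles and parted outside them. Tiles at 400 to 600 bp had 0.409 points in RA-treated WT and 0.343 points in naive WT cells. Tiles at 1200 to 2000 bp had 1.84 points in RA-treated WT and 3.40 points in naive WT cells, lower after RA on 19 of 20 chromosomes. Beyond 100000 bp the values were 1.83 points in RA-treated WT and 6.26 points in naive WT cells, lower after RA on 20 of 20.

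**Figure D3:**
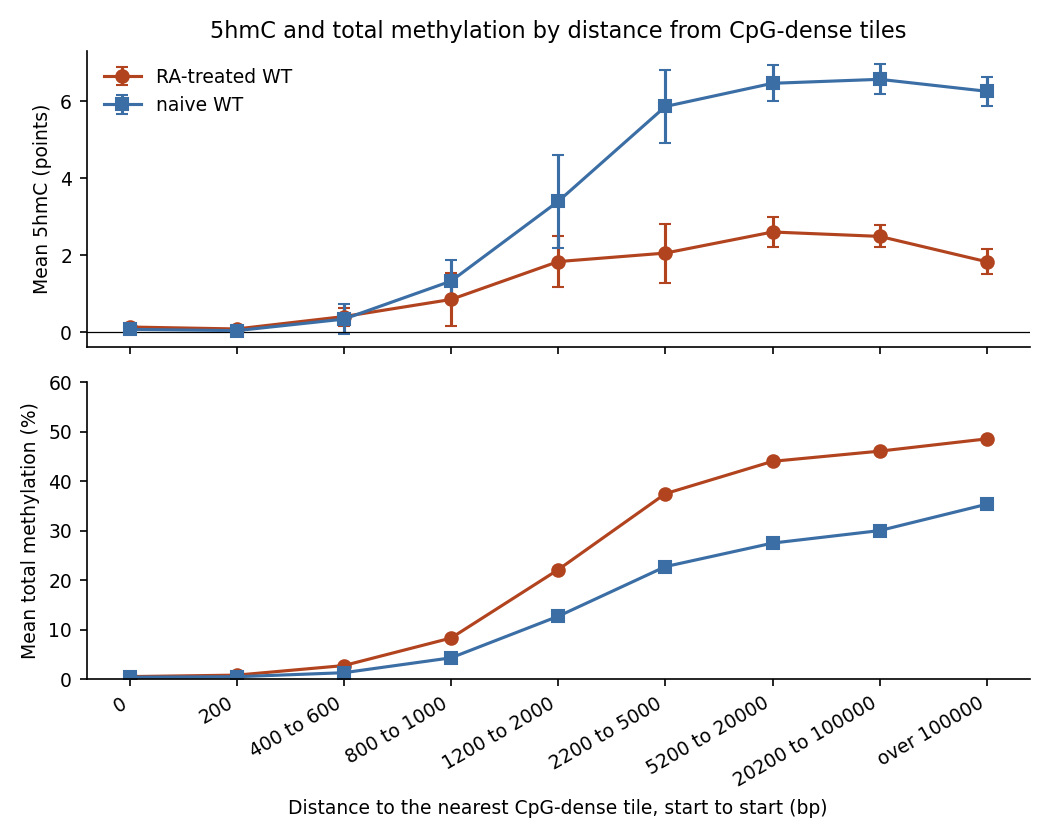
Mean 5hmC in percentage points (upper panel, error lines are the SD over 20 chromosomes) and mean total methylation in percent (lower panel) by distance to the nearest CpG-dense tile in bp (horizontal axis, classes not to scale), for RA-treated WT and naive WT cells over tiles measured in both. 5hmC is at or below 0.409 points in both groups within 600 bp, and total methylation is higher in RA-treated cells in each class shown.

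Differences along the chromosome were small in points, and X stood apart. With each autosome split into 10 stretches of equal length, 5hmC of RA-treated WT cells lay between 1.70 points in stretch 2 and 2.20 points in stretch 10. In RA-treated p53-null cells the same stretches were lowest and highest, with 2.65 and 3.04 points. X had 0.849 points, against an autosomal mean of 1.96 ± 0.165 points (SD over 19 autosomes) with a range of 1.70 to 2.22 points. Its total methylation of 40.7% lay inside the autosomal range of 39.8 to 44.3%.

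X was the lowest of 20 chromosomes in each of the 4 groups. RA-treated p53-null cells had 2.17 points on X, against 2.54 to 3.34 points on autosomes. Naive p53-null cells had 4.13 points on X, against 4.45 to 5.49 points on autosomes. Naive WT cells had 4.70 points on X, against 5.36 to 6.15 points on autosomes. In RA-treated WT cells, X lay below 19 of 19 autosomes in each class between 5 and 60% methylation and below 18 of 19 at 60 to 80%. It was not low in the outer classes, where 3 of 19 autosomes were above X under 5% and 2 of 19 at 80% or more (109 tiles of X).

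A smaller share of X tiles was listed in the CpG table, and this moved with the result. Of X tiles, 27.3% had listed CpGs. Listed tiles had 3.41 points on X and 4.17 points on autosomes, and unlisted tiles had -0.111 points on X and 0.391 points on autosomes, so X was lower within each kind. The sex of the lines and the number of X copies are not in the labels, and their part in the result was not tested.

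**Figure D4:**
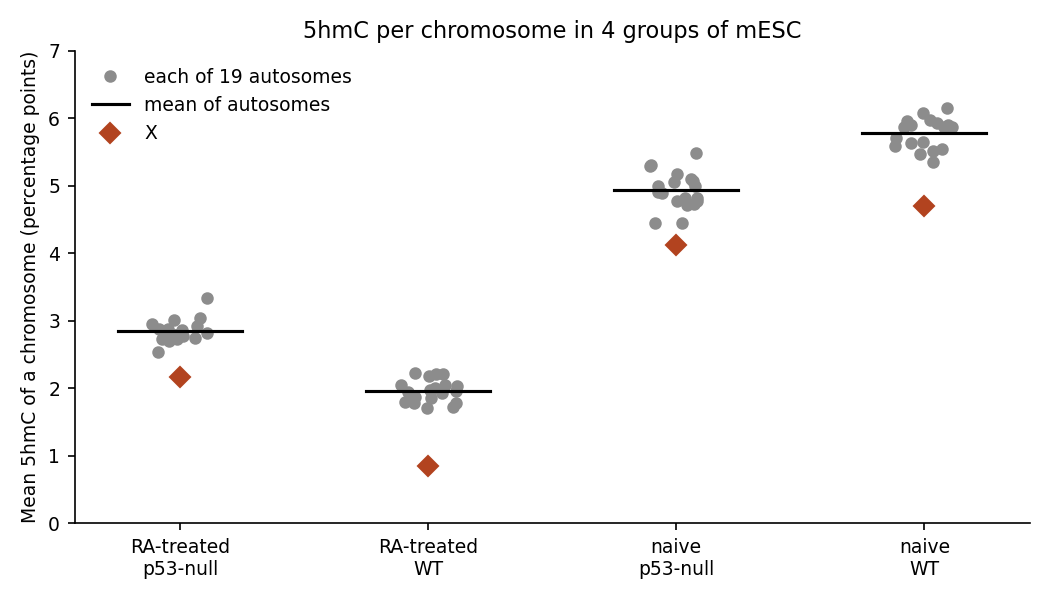
Mean 5hmC per chromosome in percentage points (vertical axis) in RA-treated p53-null, RA-treated WT, naive p53-null and naive WT cells. Grey points are 19 autosomes, scattered sideways for legibility, the line is their mean and the diamond is X, which lies below all 19 autosomes in each of the 4 groups.

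Neighbouring tiles were little alike in 5hmC. Pearson's r of 5hmC between neighbouring tiles, a description over pairs from 1 pool that may share sequenced fragments, was 0.194 for tiles that touch (112374 pairs) and 0.052 at 400 bp. It was 0.014 at 600 to 1000 bp and 0.015 at 1200 to 5000 bp. For total methylation the same values were 0.876 at 200 bp, 0.847 at 400 bp, 0.678 at 600 to 1000 bp and 0.224 at 1200 to 5000 bp.

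Blocks of neighbouring tiles were then averaged. The SD was 4.15 points for 10 tiles, 1.42 points for 100 and 1.06 points for 200. Independent tiles of the same SD would give 3.82, 1.21 and 0.855 points. The share of blocks below 0 was 31.3% with 10 tiles, 8.25% with 100 and 3.76% with 200. Pearson's r between RA-treated p53-null and RA-treated WT 5hmC, from separate libraries of the same loci, was 0.071 for single tiles and 0.177 for blocks of 200. For total methylation it was 0.932 for single tiles and 0.979 for blocks of 200.

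**Figure D5:**
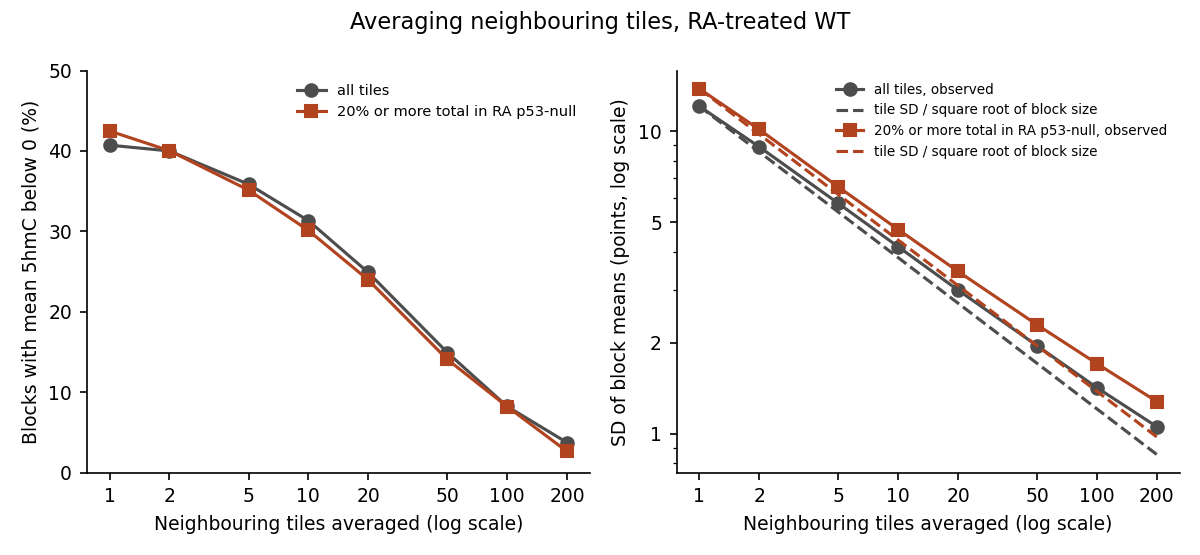
Share of blocks with a mean 5hmC below 0 in percent (left) and SD of the block means in points (right, log scale) by the number of neighbouring tiles averaged (log scale), in RA-treated WT cells, for all tiles and for tiles of 20% or more methylation in RA-treated p53-null cells. Dashed lines are the tile SD divided by the square root of the block size. The share is 40.7% for single tiles and 3.76% for blocks of 200 when all tiles are used.

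Windows of 100 kb with at least 20 tiles numbered 3389, and 2789 of them (82.3%) had a positive mean 5hmC in RA-treated WT cells. The share was 91.0% in RA-treated p53-null and 98.0% in naive WT cells. The SD over windows was 2.48 points, against a median standard error of 2.03 points over the tiles of a window. Pearson's r with RA-treated p53-null cells over the windows was 0.159.

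Of 3156 windows with at least 20% methylation, the 8 highest lay between 10.4 and 12.1 points. The highest was chr2:33600001-33700000 (mm9), with a total of 65.9%, a 5mC of 53.8% and a 5hmC of 12.1 points over 23 tiles, 17 of them above 0. Next were chr4:62300001-62400000 with 11.9 points over 24 tiles and chr10:43000001-43100000 with 11.2 points over 20 tiles. They were chosen for these values, so only the other groups bear on them. In RA-treated p53-null cells the 8 windows had a median of 3.93 points (2.27 to 5.68), and 7 of 8 were above the median of all 3156 windows, 2.67 points. In naive WT cells their median was 11.2 points, against 5.73 points over all windows, and 7 of 8 were above it. In naive p53-null cells 7 of 8 were above the median of all windows as well.

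The 8 lowest windows lay between -6.58 points, at chr12:55700001-55800000, and -4.73 points. Their median was 2.93 points in RA-treated p53-null cells, with 4 of 8 above the median of all windows, and 4.65 points in naive WT cells, with 2 of 8 above it.

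Finer runs of at least 8 tiles with gaps of at most 1000 bp numbered 406 at 20% methylation or more. The highest was chr2:135876001-135877800, with a 5hmC of 14.8 points at a total of 34.7% and with 8 of 8 tiles above 0. In the same run 5hmC was 0.991 points in RA-treated p53-null and 5.17 points in naive WT cells. At chr5:112705601-112710200 12 of 12 tiles were above 0, with a mean of 12.7 points in RA-treated WT cells, -0.578 points in RA-treated p53-null cells and 5.91 points in naive WT cells. The lowest run, chr1:173412401-173416000, had -11.3 points with 0 of 9 tiles above 0, in RA-treated WT cells. The runs too were chosen for their RA-treated WT values, so these counts of tiles above 0 are not independent of the choice. Over all tiles 55.6% were above 0.

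Of the 8 highest runs, 3 were above the median of all runs (2.60 points) in RA-treated p53-null cells and 6 were above that of naive WT cells (5.66 points). In naive p53-null cells 3 of 8 were above the median of all runs, with a median of 3.07 points against 5.05 points over all runs. The median of these 8 runs was 12.6 points in RA-treated WT cells, 1.40 points in RA-treated p53-null cells and 7.07 points in naive WT cells. No genome or annotation of build mm9 was used here, so genes, CpG islands and sequences at these positions are not named.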

How the data were processed

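Genomic DNA was digested with MspI for RRBS, with an oxidation step before bisulfite for oxRRBS, per the labels' protocols. Trim Galore, BSMAP, methylKit and genome build mm9 are named in the submitters' processing notes, where versions are not given. Which step each tool did, the coverage filters and how libraries were pooled are likewise unstated. Tile values are fractions as deposited by the authors, turned into percent here. CpG values are whole percent, as deposited. Neither gives depth, so the read-count test that was planned could not be run and no p-value is given. Another 4 columns of values that name no sample were not used.

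5hmC was computed per tile as total minus 5mC, negative values kept, with each tile counting once (Python 3.11.15, numpy 2.4.6, pandas 2.3.3, matplotlib 3.10.9). Chromosomes with at least 1000 tiles entered the spread. Class limits were 5, 20, 40, 60 and 80%. The computation of class means was tested on simulated data. The regions named are, by rule, the 8 windows of 100 kb with the highest and the 8 with the lowest 5hmC, and the 8 highest and 4 lowest runs, at 20% methylation or more; of these, the leading ones are given by position. The members, classes and this rule were chosen with earlier results of these data known.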

Additional observations from a re-analysis of the deposited data

Results flagged for a closer look

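The genotype difference in 5hmC pointed opposite ways in the 2 states over all tiles. Over the 214665 tiles with values in both, p53-null minus WT was 0.850 points in RA-treated cells and -0.833 points in naive cells, so the differences lay 1.68 points apart. With 1 pooled value per group the difference was not tested. In tiles with listed CpGs the RA-treated p53-null and RA-treated WT means were 4.12 and 4.05 points, and the naive p53-null and naive WT means were 6.54 and 6.30 points, with p53-null higher in both states. In tiles without listed CpGs the RA-treated p53-null and RA-treated WT means were 1.74 and 0.264 points, and the naive p53-null and naive WT means were 3.65 and 5.34 points. Over the single CpGs both signs were the other way round, with a total minus Hx of 3.98 points in RA-treated p53-null and 4.43 points in RA-treated WT cells, and of 5.45 points in naive p53-null and 4.75 points in naive WT cells.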

How the results depend on the processing

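No paired analysis was possible because each group is deposited as a single pooled column. Of 41 alternatives over 8 results, 15 kept the value within the spread over chromosomes (11 of 22 planned and 4 of 19 added after seeing the data), and 1 turned the direction. Some alternatives changed the unit or the statistic (percent of total, median, negative tiles set to 0). The count is therefore not a measure of processing alone. The cause of each move was not tested. The mean 5hmC of 1.96 points became 2.62 with at least 2 listed CpGs, 5.17 with negative tiles set to 0, 0.516 as a median, and 4.16 in tiles with and 0.377 in tiles without listed CpGs. The rise with methylation (2.27 points) became 4.71 with classes from the tile's own total, 0.694 from naive WT, 0.464 from the mean of own total and 5mC, 7.59 in listed and 0.322 in unlisted tiles. The density contrast (5.54 points, 1 listed CpG minus 9 or more) was 1.82 by tiles within 1000 bp, where other groups were compared (0 to 2 neighbours minus 8 or more). It could not be run at 40 to 80% methylation, where 1 dense tile remained. RA-treated minus naive WT (-3.82 points) was -15.0 as percent of total, -2.26 in listed tiles, -5.08 in unlisted tiles and -0.320 over the single CpGs. p53-null minus WT after RA (0.884 points) was 2.62 as percent of total, 0.0458 in listed tiles, 1.49 in unlisted tiles and -0.452 over the single CpGs. The share of positive windows (82.3%) was 91.6% with at least 50 tiles and 64.0% for runs of at least 5. The naive-class contrast (4.24 points) was 1.77 in listed tiles, 2.88 in unlisted tiles and 1.47 in RA-treated p53-null cells. X minus autosomes (-1.13 points) was -0.760 in listed, -0.501 in unlisted tiles and -1.36 at 20% or more. Depth is unknown, so no limit of detection per tile can be given.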
